A study of Rattus norvegicus with 18 samples.

Results

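Genes of mitosis were strongly hyper-expressed in the rat hippocampus 3 days after pilocarpine-induced status epilepticus (SE), and many of them were lower again at 7 days and after the first spontaneous seizure. Of 50 genes that encode the cyclins, kinases, checkpoint proteins, motors and chromosome proteins of cell division, 44 had a named probe among the 12331 genes with one, and 26 of these 44 rose at 3 days, which compares with 5.09% of all genes. The kinase Pbk rose by 4.36 ± 0.36 on the log2 scale, the mitotic kinase Cdk1 by 3.87 ± 0.38 and the DNA topoisomerase Top2a by 3.75 ± 0.43 (log2 difference ± SE from limma, 5 arrays against 3), and the proliferation antigen Mki67 was at least 12.7-fold higher. At 7 days 17 of the 44 genes were higher than in saline rats, and after the first spontaneous seizure 2 were, against 3.8% and 2.87% of all genes. A gene is said to rise or fall where its adjusted p was under 0.05 and the groups differed 2-fold or more. A fold given as at least is a bound on the group means, used where no spot of the lower group was flagged good. It leaves out the spread among arrays.

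The list was chosen by name, as genes known for their part in mitosis, but with earlier results of these data known. Its comparison with all genes is therefore a description and not an independent test. Each gene is represented by its brightest probe (by mean log2 value over all arrays). The 6 genes without a named probe were Ccnb2, Cdc25c, Ndc80, Nuf2, Tpx2 and Anln. The arrays were CodeLink Rat Whole Genome Bioarrays, a single-colour platform, hybridised with RNA of the whole hippocampus, 1 array per male adult Wistar rat. Rats that reached SE and survived, after scopolamine methylnitrate and then pilocarpine, with diazepam given later to stop the seizures, were taken at 3 days (D3, n = 5), at 7 days from SE (D7, n = 5) or right after the first spontaneous seizure (Chronic, n = 5), and the 3 saline-treated rats, 1 matched to each of these times, were pooled as Control (n = 3). Values are the deposited normalised intensities, in which the middle spot of an array lies near 1, and replicate numbers are those in the titles of the samples.

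Mitosis is driven by Cdk1 bound to cyclins A and B, and Cks proteins help this kinase to act on its substrates. The spindle checkpoint holds the cell until every chromosome is attached, after which Cdc20 and Ube2c, parts of the anaphase-promoting complex pathway (APC/C), lead to the destruction of cyclins and of securin (Pttg1), and cytokinesis then separates the daughter cells. Transcripts of these genes are made in late S and G2 phase and are scarce in cells that do not divide, such as neurons. In the adult hippocampus, dividing cells are found among the progenitors of the dentate gyrus and among glia, and microglia and astrocytes divide after injury. More dividing cells and more RNA of these genes in each cell cannot be told apart in RNA of whole tissue.

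Many of these genes share 2 short elements near their start: the cell cycle genes homology region (CHR, core TTTGAA), which the DREAM and B-Myb complexes bind, and the CCAAT box, bound by NF-Y. RefSeq gave a promoter window, from 250 bases before to 50 bases after the start, for 44 of the 50 genes (39 of those measured and 5 of those without a probe). The first entry was used where a gene had several. Both motifs were searched on either strand. The core TTTGAA, or its reverse complement TTCAAA, lay in 32 of 44 windows (72.7%) and in 18.1% of the windows of all 27457 genes, and the CCAAT box, read as ATTGG on the other strand, in 33 of 44 (75%) and in 37.7% of all. Both lay in 26 of 44 windows (59.1%) and in 7.25% of all. In 2 of the 44 windows copies of both motifs shared bases.

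The 250 bases before the start are shown for 5 genes that rose at D3 and have both elements, and for Melk, which was not called and has neither, 5′ to 3′ on the strand of the gene, in build GRCr8. Capitals mark the CHR core and the CCAAT box in either direction. Cdk1 lies at chr20:19265043-19265292 on the plus strand, Top2a at chr10:84473094-84473343 on the minus strand and Mki67 at chr1:199952594-199952843 on the minus strand. Pttg1 lies at chr10:28406327-28406576 on the minus strand, Cdc20 at chr5:137255800-137256049 on the minus strand and Melk at chr5:63335901-63336150 on the plus strand. In Mki67 a CHR core and a CCAAT box on the other strand share an end.
Cdk1: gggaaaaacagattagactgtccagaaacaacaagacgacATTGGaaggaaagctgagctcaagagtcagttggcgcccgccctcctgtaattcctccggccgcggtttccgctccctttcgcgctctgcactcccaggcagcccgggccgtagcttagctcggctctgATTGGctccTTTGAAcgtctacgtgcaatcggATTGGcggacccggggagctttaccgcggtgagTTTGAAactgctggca
Top2a: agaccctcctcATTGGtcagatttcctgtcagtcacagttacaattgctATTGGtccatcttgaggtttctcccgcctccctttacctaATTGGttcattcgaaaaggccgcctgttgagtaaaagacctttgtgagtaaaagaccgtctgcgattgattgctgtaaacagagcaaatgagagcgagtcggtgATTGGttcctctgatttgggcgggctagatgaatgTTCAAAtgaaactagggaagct
Mki67: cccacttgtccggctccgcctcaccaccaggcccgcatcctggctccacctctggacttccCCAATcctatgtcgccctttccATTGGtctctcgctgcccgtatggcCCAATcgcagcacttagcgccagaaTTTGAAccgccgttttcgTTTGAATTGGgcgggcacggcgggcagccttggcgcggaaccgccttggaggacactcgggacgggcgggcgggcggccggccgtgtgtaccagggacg
Pttg1: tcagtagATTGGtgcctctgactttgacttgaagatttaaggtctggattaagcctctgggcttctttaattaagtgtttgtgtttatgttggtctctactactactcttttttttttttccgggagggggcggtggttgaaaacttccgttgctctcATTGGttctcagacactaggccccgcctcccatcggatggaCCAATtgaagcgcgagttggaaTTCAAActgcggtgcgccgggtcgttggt
Cdc20: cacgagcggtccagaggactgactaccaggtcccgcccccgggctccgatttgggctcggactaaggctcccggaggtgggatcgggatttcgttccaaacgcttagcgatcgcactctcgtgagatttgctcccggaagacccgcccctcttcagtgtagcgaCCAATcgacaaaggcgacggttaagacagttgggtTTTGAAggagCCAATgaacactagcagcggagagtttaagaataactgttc
Melk: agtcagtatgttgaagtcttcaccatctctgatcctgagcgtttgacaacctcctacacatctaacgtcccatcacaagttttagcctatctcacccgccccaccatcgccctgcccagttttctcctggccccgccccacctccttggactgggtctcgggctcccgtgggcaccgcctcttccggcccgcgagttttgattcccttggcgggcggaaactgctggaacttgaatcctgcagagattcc

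Of the genes that rose at D3, 22 had a window, and 18 of these (81.8%) held the CHR core, 18 the CCAAT box and 16 (72.7%) both. Of the measured genes that were not called at D3, 17 had a window, and 9 (52.9%) held the CHR core, 13 (76.5%) the CCAAT box and 8 (47.1%) both. The sequences shown were picked by call and motif together, and other genes differed. Bub1 and Ncaph rose and have neither element in the 250 bases, and Cks1b and Ect2 were not called and have both. The copies of the CHR core lay close to the start: 37 of the 40 copies in these genes (92.5%) were within 120 bases of it, a distance chosen after the positions were seen, and 47.7% of the copies in all genes were. In Cdk1 the copies began 72 and 16 bases before the start, in Top2a 22, in Pttg1 29 and in Cdc20 51. A match of letters is a description of the window and not a sign of binding.

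**Figure D1:**
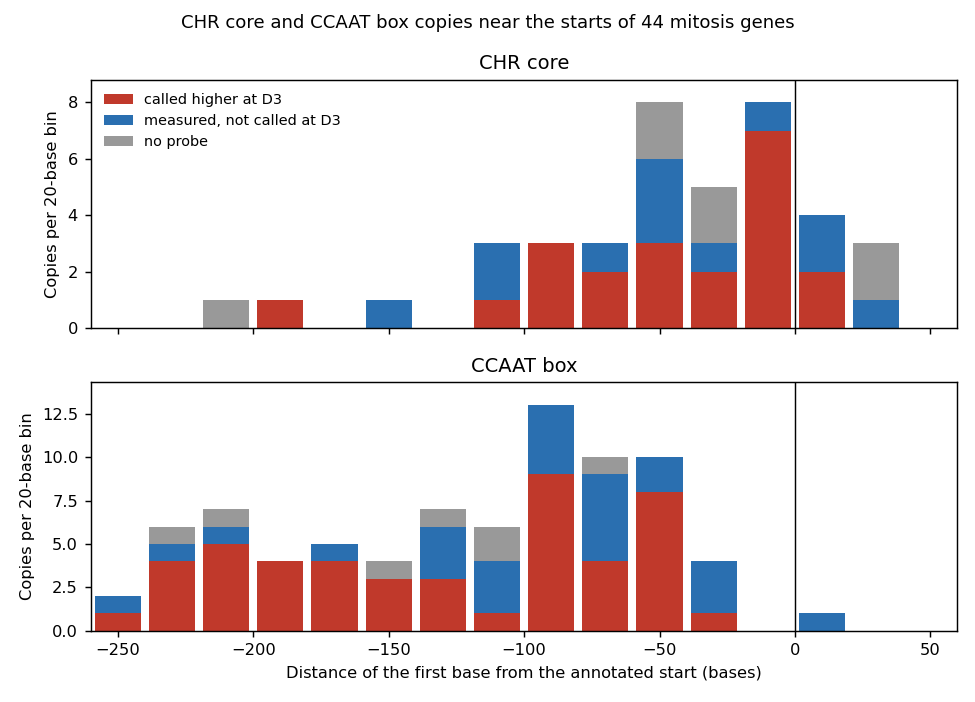
Copies of the CHR core (upper) and of the CCAAT box (lower) in 20-base bins of distance from the annotated start (x axis, bases) in the 44 promoter windows, coloured by the call of the gene at D3. Of the 40 CHR copies, 37 lie within 120 bases of the start, and the CCAAT boxes are spread more widely over the window.

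Between 66.0% and 76.0% of spots were flagged good, pairs of arrays within a group correlated at 0.949 or more (median 0.963), and the median difference of all probes from Control was between -0.119 and -0.063 on the log2 scale. D7 replicate 33 had the lowest median correlation with the others of its group (0.951), and D7 replicate 31 held neutrophil transcripts at 5.51 log2 units above Control (mean of 4 genes), where the other pilocarpine arrays were between -0.77 and 0.92. Excitatory neuron markers of the hippocampus were present, with Slc17a7 and Calb1 flagged good on every array. At D3 the mean of 5 such markers was from -1.23 to -0.79 relative to Control, and Calb1 (-1.35 ± 0.28) and Camk2a (-1.14 ± 0.29) fell. The means were from -0.86 to -0.46 at D7 and from -0.95 to -0.15 in Chronic, and the part of this change in the rise of the mitosis genes was not tested.

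Cyclins, Cdk1 and their partners come first. Cdk1 read 0.387, 0.435 and 0.515 on the Control arrays, 8.53, 8.07, 4.79, 5.43 and 6.3 at D3, 1.52, 0.731, 4.34, 0.928 and 2.32 at D7, and in Chronic 0.702, 0.686, 0.639, 0.54 and 0.874, in the replicate order 26, 36 and 47 for Control, 12, 11, 13, 14 and 15 for D3, 31 to 35 for D7 and 41 to 45 for Chronic, which is kept below. Every D3 array lay above every other array, and every D7 and Chronic array lay above the 3 Control arrays. The D3 difference from Control was a 14.6-fold rise (adjusted p = 3.41e-06, limma, Benjamini-Hochberg over all 33800 probes), and at D7 the difference was 1.85 ± 0.38 (adjusted p = 0.00375). A second probe of Cdk1 gave 3.64 ± 0.37 at D3.

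Ccna2 encodes cyclin A, the partner of Cdk1 and Cdk2 from S phase to early mitosis. It read 0.237, 0.734 and 0.319 on the Control arrays, 3.32, 3.42, 1.96, 2.43 and 2.86 at D3, 0.819, 0.602, 1.79, 0.607 and 1.08 at D7, and in Chronic 0.653, 0.49, 0.387, 0.284 and 0.605. The D3 arrays stood apart from all others, whereas D7 replicates 32 and 34 lay below Control replicate 36, and the differences were 2.85 ± 0.37 at D3 and 1.23 ± 0.37 at D7 (adjusted p = 0.0264). Cks2, a small subunit of the Cdk1 complex, read 0.289, 0.265 and 0.194 on the Control arrays, 2.32, 1.89, 1.34, 1.53 and 2.14 at D3, 0.573, 0.423, 1.29, 0.318 and 0.611 at D7, and in Chronic 0.432, 0.276, 0.482, 0.22 and 0.532. No Control spot of Cks2 was flagged good, so that its D3 level was at least 6.35-fold higher (adjusted p = 3.07e-05) and its D7 level at least 2.01-fold higher (adjusted p = 0.0241).

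Ccnb1, cyclin B1, read 1.12, 1.11 and 1.1 on the Control arrays, 2.33, 2.5, 1.73, 1.99 and 2.47 at D3, 0.981, 0.881, 1.22, 0.866 and 1.12 at D7, and in Chronic 0.835, 1.03, 0.845, 0.83 and 0.765. Its D3 arrays lay above all others and the difference of 0.97 ± 0.15 passed the test (adjusted p = 0.000201) but stayed just short of the 2-fold limit that a call requires. Ccnb1 fell from D3 to D7 by 1.12 on the log2 scale (SE 0.13, adjusted p = 0.000815). Ccnf, cyclin F, part of a ubiquitin ligase, read 0.599, 0.678 and 0.611 on the Control arrays, 1.23, 1.27, 1.04, 1.34 and 1.47 at D3, 1, 0.588, 1.05, 0.868 and 0.969 at D7, and in Chronic 1.29, 0.808, 0.642, 2.46 and 1.95, with the spot of D3 replicate 13 left out of the fit. It rose by 1.08 ± 0.33 at D3 (adjusted p = 0.0266) and by 1.01 ± 0.32 in Chronic (adjusted p = 0.0408), where replicates 44 and 45 were the high ones and replicate 43 lay within the Control range. The D3 call was lost without any one of the Control arrays, and the Chronic call in 14 of the alternatives tried. Cks1b, the sister of Cks2, differed by 0.28 ± 0.13 at D3 (adjusted p = 0.145, limma). A second probe of Cks1b gave 0.65 ± 0.18 (adjusted p = 0.0153, limma), under 2-fold. Cdc25b, a phosphatase that activates Cdk1, differed by -0.14 ± 0.41, with no D3 spot flagged good.

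**Figure D2:**
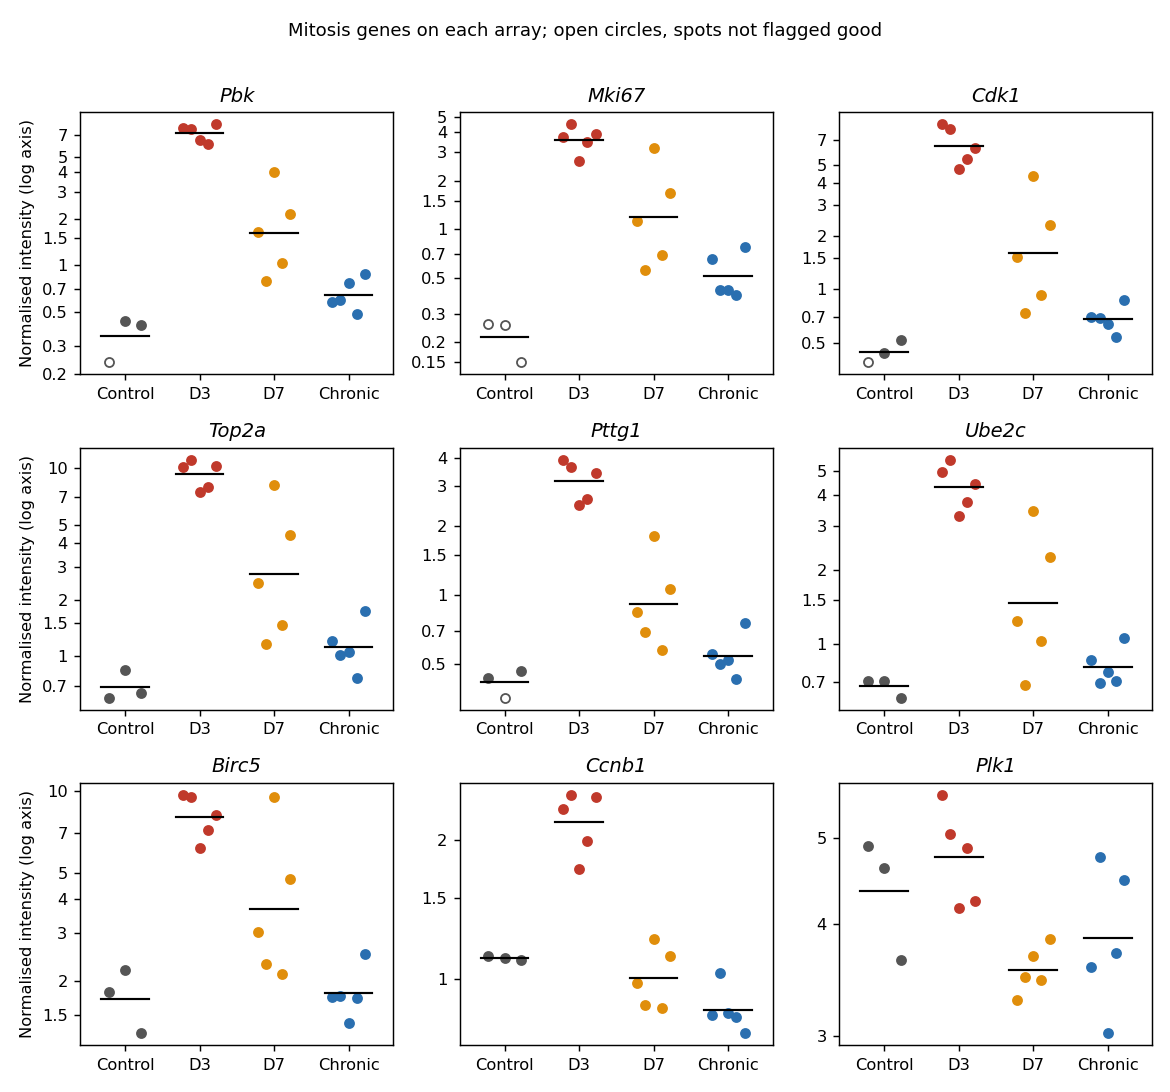
Normalised intensity (log axis) of 9 mitosis genes on each of the 18 arrays, by group, with a line at the geometric mean; open circles are spots not flagged good. In Pbk, Mki67, Cdk1 and Top2a all D3 arrays but not all D7 arrays stand far above Control, and the brightest probe of Plk1 overlaps between D3 and Control.

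Among the other kinases 1 of 5, Pbk, rose at D3. Pbk, a kinase of proliferating cells, read 0.236, 0.438 and 0.412 on the Control arrays, 7.74, 7.59, 6.45, 6.1 and 8.16 at D3, 1.65, 0.796, 3.99, 1.03 and 2.14 at D7, and in Chronic 0.578, 0.596, 0.767, 0.485 and 0.876. D3 was 20.5-fold above Control (adjusted p = 4.87e-07) with no overlap, and D7 was 4.67-fold above (adjusted p = 0.00065), also with no overlap. Chronic arrays all lay above Control as well, but the difference of 0.89 ± 0.36 did not pass (adjusted p = 0.101).

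The brightest probe of Plk1, the polo-like kinase of mitotic entry and spindle assembly, read 4.89, 4.62 and 3.65 on the Control arrays, 5.58, 5.05, 4.17, 4.87 and 4.24 at D3, 3.29, 3.49, 3.68, 3.46 and 3.85 at D7, and in Chronic 3.58, 4.75, 3.02, 3.71 and 4.48. All groups overlapped except D7 and D3, and the D3 difference was 0.13 ± 0.14 (adjusted p = 0.574). A second, dimmer probe of Plk1 read 0.141, 0.301 and 0.0368 on the Control arrays, 0.491, 0.552, 0.458, 0.422 and 0.559 at D3, 0.192, 0.0838, 0.332, 0.0951 and 0.263 at D7, and in Chronic 0.0597, 0.351, 0.134, 0.108 and 0.0819. Only the D3 spots of this probe were flagged good, and it was at least 1.74-fold higher at D3 than in Control (2.07 ± 0.60 as fitted, adjusted p = 0.0179). From D3 to Chronic it was at least 1.74-fold lower (adjusted p = 0.0391), where the brightest probe was not called (-0.30 ± 0.12). Which of these probes follows the Plk1 transcript was not tested. Aurka, the spindle pole kinase, differed by 0.83 ± 0.18 at D3 (adjusted p = 0.00248), short of 2-fold. Melk gave -0.05 ± 0.13 and Nek2, flagged good on no array, -0.53 ± 0.36.

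Genes of the spindle checkpoint and of the APC/C pathway rose in 5 of 8 cases at D3 and in 5 of 8 at D7. Pttg1, securin, read 0.434, 0.356 and 0.465 on the Control arrays, 3.92, 3.65, 2.48, 2.64 and 3.43 at D3, 0.846, 0.693, 1.81, 0.573 and 1.07 at D7, and in Chronic 0.552, 0.5, 0.523, 0.432 and 0.755. D3 and D7 both lay above every Control array, at 2.93 ± 0.28 and 1.14 ± 0.28 (adjusted p = 2.04e-06 and 0.0093). Cdc20, the activator of the APC/C, read 0.47, 0.293 and 0.265 on the Control arrays, 2.63, 2.69, 1.62, 1.95 and 2.41 at D3, 0.721, 0.577, 1.58, 0.46 and 0.924 at D7, and in Chronic 0.518, 0.61, 0.439, 0.529 and 0.604. Its D3 rise was 2.74 ± 0.30 and its D7 rise 1.22 ± 0.30, and D7 replicate 34 lay just below Control replicate 26.

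Ube2c, the ubiquitin-conjugating enzyme of the APC/C, read 0.708, 0.708 and 0.605 on the Control arrays, 4.95, 5.57, 3.31, 3.77 and 4.46 at D3, 1.24, 0.681, 3.46, 1.03 and 2.24 at D7, and in Chronic 0.857, 0.695, 0.771, 0.709 and 1.06. It was 6.45-fold higher at D3 and 2.18-fold higher at D7 (adjusted p = 0.0302), with D7 replicate 32 inside the Control range. Bub1, a checkpoint kinase, read 0.177, 0.262 and 0.103 on the Control arrays, 1.14, 1.17, 0.949, 1.07 and 1.06 at D3, 0.298, 0.408, 1.05, 0.265 and 0.527 at D7, and in Chronic 0.2, 0.33, 0.317, 0.275 and 0.417. Bub1b, which encodes BubR1, read 0.0974, 0.261 and 0.113 on the Control arrays, 0.871, 0.933, 0.719, 0.66 and 0.818 at D3, 0.258, 0.359, 0.574, 0.238 and 0.415 at D7, and in Chronic 0.225, 0.204, 0.173, 0.149 and 0.297. No Control spot of either gene was flagged good, and D3 was at least 3.79-fold higher for Bub1 (adjusted p = 6.67e-05) and at least 2.79-fold higher for Bub1b (adjusted p = 5.07e-05). At D7 the bounds were 1.57-fold and 1.23-fold.

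The other 3 checkpoint and APC/C genes were not called. Mad2l1, which encodes the checkpoint protein Mad2, read 3.72, 3.74 and 0.751 on the Control arrays, 1.19, 1.12, 0.987, 0.888 and 0.961 at D3, 0.629, 0.689, 1.65, 0.685 and 1.42 at D7, and in Chronic 1.19, 1.23, 0.993, 2.88 and 1.01. Control replicates 26 and 36 were the highest arrays of all, and Control replicate 47 lay below all but 3 D7 arrays. The differences of -1.10 ± 0.45 at D3 and -1.23 ± 0.45 at D7 did not pass (adjusted p = 0.0862 and 0.0616, limma). A second, dimmer probe of Mad2l1 went the other way, at 1.1 ± 0.56 at D3 and 0.56 ± 0.56 at D7. It was not called, and its only good spot was on 1 D3 array. Cdca3, a trigger of mitotic entry, gave -0.48 ± 0.14 at D3 (adjusted p = 0.0162, under 2-fold). Ttk, the checkpoint kinase Mps1, was flagged good on no array.

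Of the chromosomal passenger and kinetochore genes, 3 of 5 rose at D3. Birc5, survivin, read 1.82, 2.19 and 1.29 on the Control arrays, 9.63, 9.44, 6.14, 7.17 and 8.11 at D3, 3.03, 2.31, 9.49, 2.12 and 4.74 at D7, and in Chronic 1.75, 1.77, 1.4, 1.74 and 2.52. D3 lay above every Control array, D7 replicate 34 lay just below Control replicate 36, D7 replicate 33 reached the level of D3, and the rises were 2.21 ± 0.34 at D3 and 1.09 ± 0.34 at D7 (adjusted p = 0.0338). Aurkb, the kinase of the passenger complex, read 0.996, 0.875 and 1.3 on the Control arrays, 2.18, 2.31, 1.87, 1.55 and 2.2 at D3, 1.69, 1.64, 2.83, 1.44 and 1.35 at D7, and in Chronic 1.51, 1.41, 1.45, 1.56 and 1.07, with the spot of Chronic replicate 42 left out. All D3 and D7 arrays were above all Control arrays, and the differences of 0.94 ± 0.21 (adjusted p = 0.00398) and 0.73 ± 0.21 (adjusted p = 0.0244) passed the test but not the 2-fold limit. Cenpf, a kinetochore protein, rose by 2.33 ± 0.30 and Cdca8, borealin, by 1.97 ± 0.25, while Spc25 of the Ndc80 complex, with its spot of D7 replicate 35 left out, gave 0.88 ± 0.19 (adjusted p = 0.00257). The second probe of Cenpf was called at D7 (1.47 ± 0.50 as fitted, adjusted p = 0.047) where the brightest was not (0.75 ± 0.30, adjusted p = 0.0861), and only D7 replicate 33 among the D7 arrays had a good spot on that second probe. From D3 to D7 the brightest probe of Cenpf fell (-1.58 ± 0.26, adjusted p = 0.00682) and the second was not called (-0.77 ± 0.43).

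Spindle proteins and motors rose in 5 of 7 cases at D3. Nusap1, which bundles spindle microtubules, read 0.163, 0.217 and 0.226 on the Control arrays, 1.87, 1.87, 1.14, 1.31 and 1.64 at D3, 0.613, 0.265, 1.13, 0.41 and 0.839 at D7, and in Chronic 0.342, 0.558, 0.319, 0.269 and 0.275. D3 and D7 arrays lay above every Control spot, none of which was flagged good, at least 5.41-fold at D3 and 2.02-fold at D7 (adjusted p = 0.00735). Dlgap5, a spindle assembly factor, read 0.626, 0.686 and 0.596 on the Control arrays, 3.68, 2.57, 2.16, 2.69 and 3.21 at D3, 1.31, 0.961, 2.18, 1.33 and 1.41 at D7, and in Chronic 1.06, 0.944, 0.782, 0.765 and 1.1. All 3 pilocarpine groups lay above Control, at 2.15 ± 0.21, 1.13 ± 0.21 and 0.54 ± 0.21, the last without passing (adjusted p = 0.092). The second probe of Dlgap5 gave 0.72 ± 0.23 at D7 (adjusted p = 0.0391), below the 2-fold limit.

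The chromokinesins Kif22 and Kif4a rose by 2.34 ± 0.28 (without the spot of D7 replicate 33) and 1.33 ± 0.26 at D3, and Hmmr, a spindle and hyaluronan-binding protein, by 1.37 ± 0.20. From D3 to D7 the brightest probe of Hmmr fell (-1.38 ± 0.17) and the second was not called (-1.0 ± 0.38, adjusted p = 0.266). Kif11, the motor that separates the spindle poles, gave 0.98 ± 0.46 at D3 (adjusted p = 0.138) and Kif2c, which depolymerises microtubules at kinetochores, 0.26 ± 0.21. Neither passed.

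Of the genes of cytokinesis, 5 of 6 rose at D3. Cep55, which acts at the midbody in the last step of separation, read 0.235, 0.0549 and 0.317 on the Control arrays, 1.69, 2.18, 1.28, 1.58 and 1.93 at D3, 0.651, 0.24, 1.31, 0.45 and 0.789 at D7, and in Chronic 0.146, 0.223, 0.151, 0.338 and 0.273. D3 arrays stood above all Control and Chronic arrays but D7 replicate 33 lay just above the lowest of them (3.42 ± 0.50, adjusted p = 0.000132), D7 differed by 1.89 ± 0.50 (adjusted p = 0.0144) with replicate 32 inside the Control range, and no Chronic spot was flagged good. The D7 call of Cep55 was lost without Control replicate 36 (1.12 on the log2 scale, adjusted p = 0.128, limma). That array had the lowest reading of Cep55 and is the Control array matched to D7. A second probe of Cep55, with no good Control spot, was not called at D7 (adjusted p = 0.0687). Kif20a, a motor of the central spindle, read 0.261, 0.426 and 0.128 on the Control arrays, 2.29, 2.46, 1.44, 1.53 and 2.27 at D3, 0.606, 0.347, 1.22, 0.454 and 0.688 at D7, and in Chronic 0.213, 0.235, 0.37, 0.372 and 0.429, with the spot of D7 replicate 32 left out of the fit. Its rises were 3.01 ± 0.36 at D3 and 1.52 ± 0.37 at D7 (adjusted p = 0.0109), and the arrays of D3 stood above all others.

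Prc1, which bundles the central spindle, rose by 2.19 ± 0.27 at D3, and Kif23 and Racgap1, the 2 subunits of centralspindlin, by 1.87 ± 0.27 (without the spot of D3 replicate 11) and 1.73 ± 0.23. Ect2, the exchange factor that centralspindlin recruits, was lower on every D3 array than in Control, at -0.75 ± 0.18 (adjusted p = 0.0066), and did not reach 2-fold. Its second probe was flagged good on no array.

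Of the chromosome genes, Mki67, Top2a and Ncaph rose. Mki67, the Ki-67 antigen of proliferating cells, read 0.26, 0.256 and 0.15 on the Control arrays, 3.73, 4.47, 2.65, 3.49 and 3.91 at D3, 1.12, 0.56, 3.21, 0.696 and 1.69 at D7, and in Chronic 0.66, 0.423, 0.422, 0.393 and 0.779. No Control spot was flagged good and all 15 pilocarpine arrays lay above them: D3 was at least 12.7-fold higher (adjusted p = 3.41e-06), D7 at least 4.18-fold (adjusted p = 0.000745) and Chronic at least 1.81-fold (adjusted p = 0.0419). The Chronic call was lost in 14 of the alternatives tried. Top2a, which untangles DNA before chromosomes part, read 0.603, 0.849 and 0.635 on the Control arrays, 10.2, 11.1, 7.45, 7.92 and 10.3 at D3, 2.46, 1.17, 8.13, 1.46 and 4.44 at D7, and in Chronic 1.2, 1.02, 1.05, 0.77 and 1.74. It was 13.5-fold above Control at D3 and 3.97-fold at D7 (adjusted p = 0.00451), and D7 replicate 33 lay within the D3 range.

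Ncaph, a subunit of condensin, read 0.369, 0.346 and 0.472 on the Control arrays, 1.7, 1.43, 1.13, 1.25 and 1.46 at D3, 0.545, 0.674, 1.83, 0.65 and 1.1 at D7, and in Chronic 0.889, 0.73, 0.593, 0.745 and 0.574. Every pilocarpine array was above every Control array, with rises of 1.82 ± 0.29 at D3 and 1.14 ± 0.29 at D7, and a Chronic difference of 0.83 ± 0.29 (adjusted p = 0.0576). Ncapg, another condensin subunit, gave 0.95 ± 0.30 at D3 (adjusted p = 0.0266), and the condensin ATPases Smc4 (without the spot of D7 replicate 35) and Smc2 gave 0.58 ± 0.11 and 0.35 ± 0.16, all under 2-fold.

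**Figure D3:**
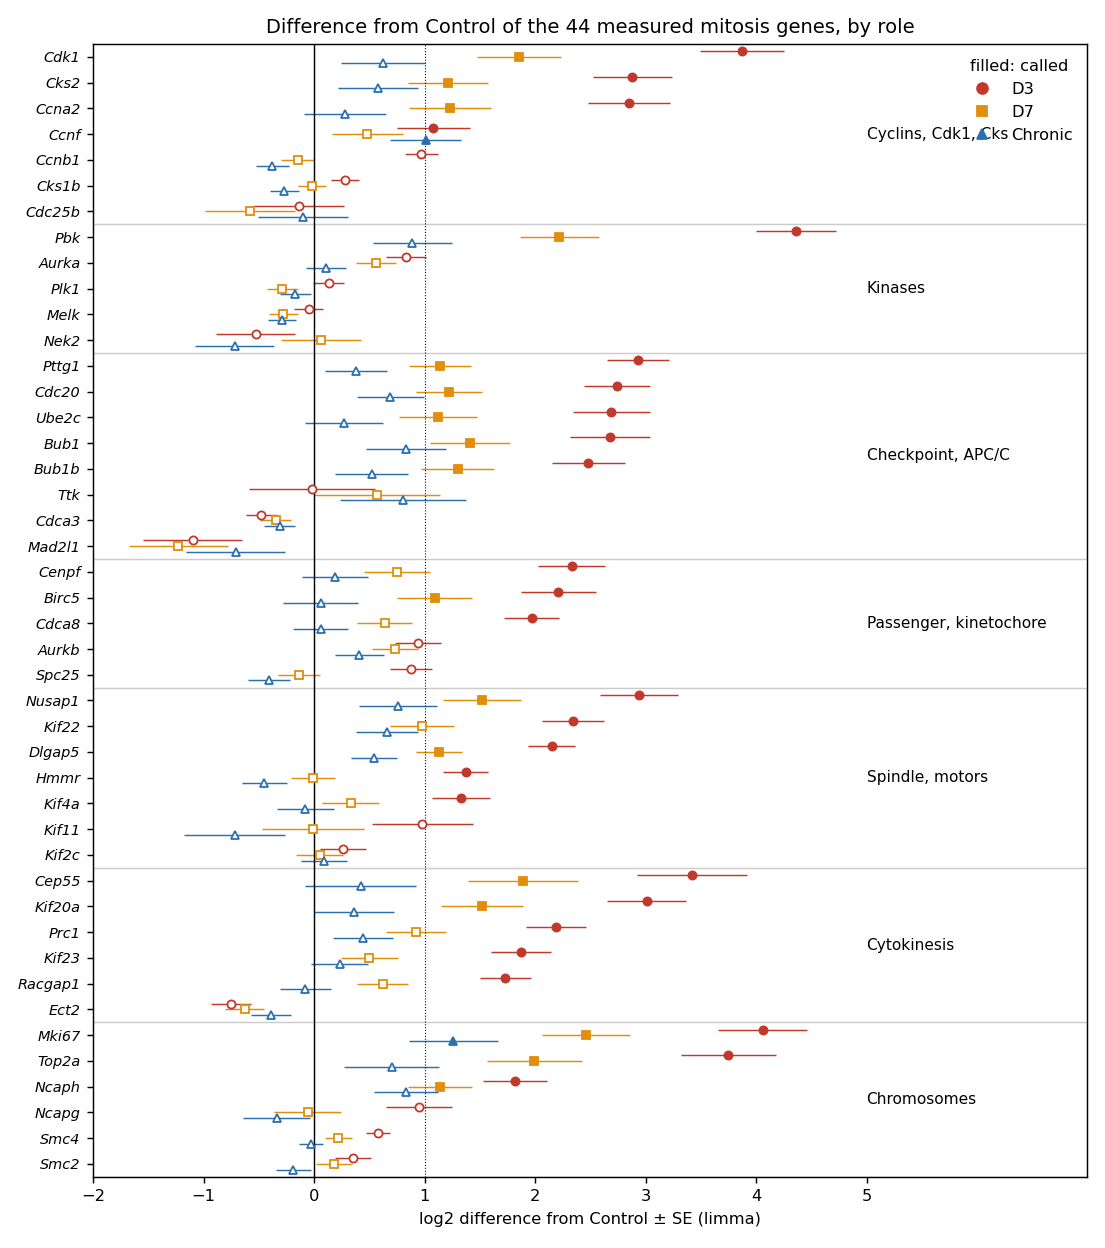
log2 difference from Control with its SE (x axis, limma) of the 44 measured genes at D3 (circles), D7 (squares) and Chronic (triangles), grouped by role and ordered by the D3 difference; filled symbols were called and the dotted line marks 2-fold. D3 lies to the right of D7, and D7 to the right of Chronic, in 35 of the 44 genes.

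Over the list, the median difference from Control was 1.78 at D3, 0.63 at D7 and 0.21 in Chronic on the log2 scale, where the median of all genes was -0.10, -0.12 and -0.12. At D3, 26 genes were called higher and 0 lower by limma (background 0.973% lower), with 38 of 44 at an unadjusted p under 0.05 and 0 lower by the methods' t-test, and in 33 of 44 genes all D3 arrays lay above all Control arrays, which held for 16.1% of all genes. At D7, 17 were higher (3.8% of all genes) and 0 lower (0.487%), with 28 of 44 at an unadjusted p under 0.05, and D7 lay wholly above Control in 14 of 44 genes (9.21% of all). The methods' t-test called 13 higher at D7 before adjustment and 0 after it, and limma called 4 on log2 of value plus 0.25. In Chronic 2 were higher (2.87%), Mki67 and Ccnf, and 0 lower (0.673%), with 15 of 44 genes at an unadjusted p under 0.05 and 1 higher by the methods' t-test before adjustment. Of all 12331 genes, 5089, 4772 and 4434 had an unadjusted limma p under 0.05 at D3, D7 and Chronic. The Chronic count of 15 of 44 was thus not above the share of all genes. The comparisons of D3, D7 and Chronic with Control share the Control arrays. With the Control array of the same time alone, 25 genes rose and 1, Mad2l1, fell at D3, 1 gene (Cep55) rose at D7 and 0 in Chronic, where 3.88%, 1.87% and 0.255% of 12138 genes were called higher.

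The decline was tested between the pilocarpine groups. Chronic rats differ from D3 and D7 rats both in time from SE and in a recent seizure, which cannot be told apart here. The comparisons of D7 and of Chronic with D3 share the D3 arrays. From D3 to D7, 21 of 44 genes fell (0.454% of all genes) and 0 rose (0.073%), with a median of -1.12, and the methods' t-test called 26 lower before adjustment and 1 after it. From D3 to Chronic, 28 fell (0.997%) and 0 rose (0.122%), with a median of -1.66, and in 31 genes every Chronic array lay below every D3 array (5.16% of all genes). The largest fitted falls from D3 to Chronic were those of Pbk (-3.47 ± 0.31), Cdk1 (-3.25 ± 0.33) and Top2a (-3.05 ± 0.37), and Cep55, with no good Chronic spot, was at least 5.6-fold lower. From D7 to Chronic, 0 genes were called in either direction by limma (0.0243% of all genes higher and 0.0162% lower). The median was -0.47, and 22 of 44 had an unadjusted limma p under 0.05, as did 1372 of all 12331 genes. The methods' t-test called 7 lower before adjustment and 0 after it.

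Besides genes that had risen at D3, those that fell to Chronic included Ccnb1 (-1.35 ± 0.13), Spc25 (-1.30 ± 0.16), Kif11 (-1.70 ± 0.40) and Ncapg (-1.29 ± 0.26). The group means ran D3 above D7 above Chronic in 35 of 44 genes (79.5%) and in 23.0% of all genes. Of the 26 genes called at D3, Ccnf was the exception to this order, but these genes were selected by a high D3 value. Over these 26 genes the D7 difference from Control was a median of 44.6% of the D3 difference, from -1.02% in Hmmr to 62.8% in Ncaph. The Chronic difference was a median of 17.3%. Selection by the D3 difference tends to lower both shares.

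**Figure D4:**
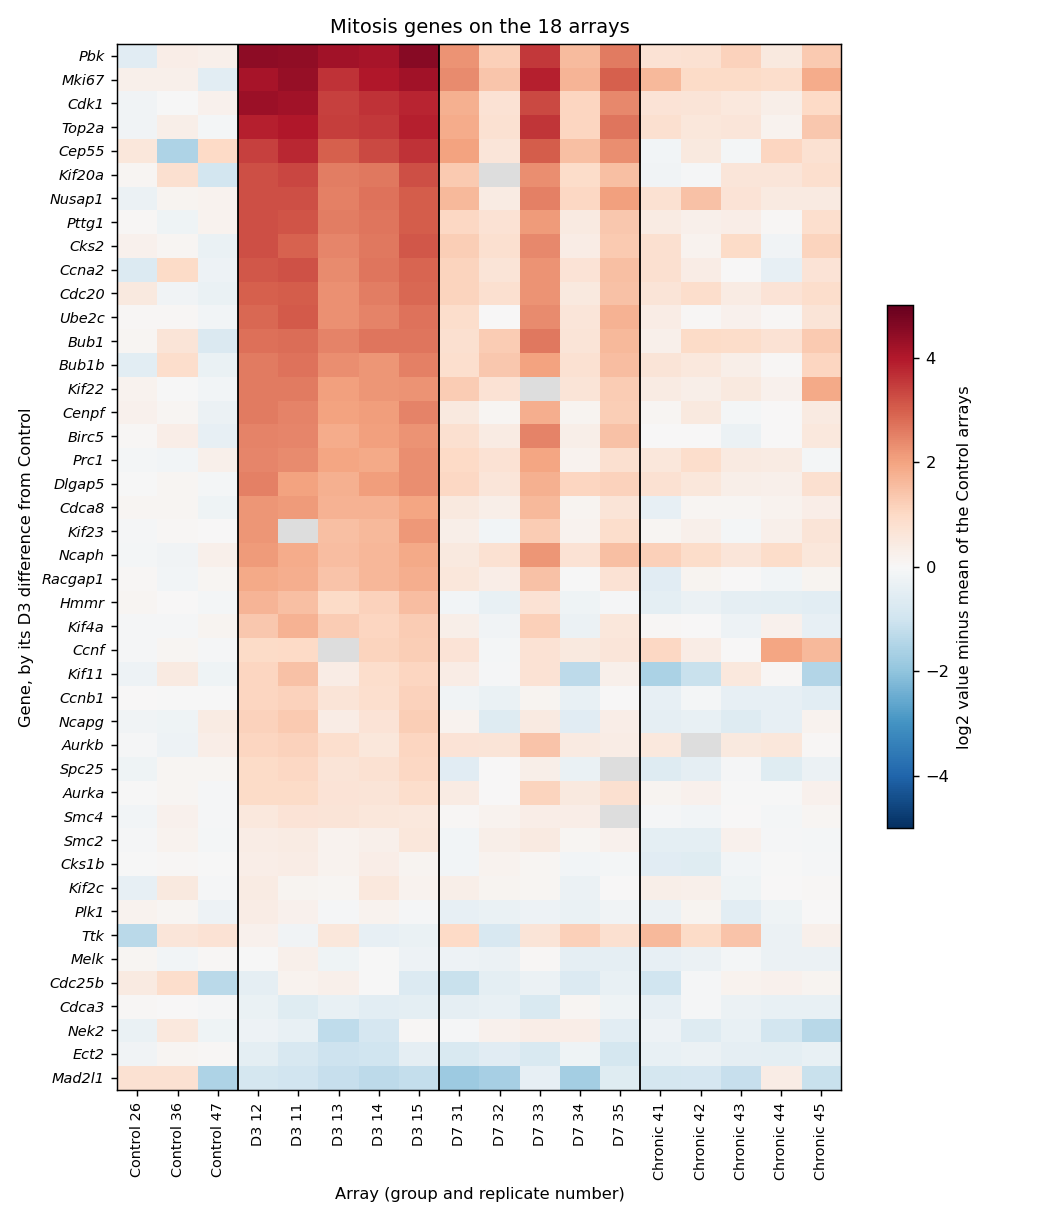
log2 value minus the mean of the Control arrays (colour) of the 44 genes (rows, by their D3 difference) on the 18 arrays (columns, by group and replicate); grey, spots left out. The D3 columns are high in the upper 26 genes, D7 replicate 33 is the highest D7 column, and the Chronic columns are near Control.

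The mean over the 44 genes, as log2 above the Control mean, was 0.56, 0.23, 1.37, 0.29 and 0.89 on D7 replicates 31 to 35, from 1.37 to 1.79 at D3, from 0.13 to 0.34 in Chronic and from -0.11 to 0.15 in Control. D7 replicate 33 was the highest D7 array in 25 of the 26 genes called at D3, and its mean equalled that of the lowest D3 array, replicate 13, which was itself lowest in 21 of 26. Without D7 replicate 33, 9 genes were called higher and 1, Mad2l1, lower at D7, and 27 fell from D3 to D7. The 8 genes whose D7 rise was lost were Birc5, Ccna2, Cdc20, Cks2, Dlgap5, Ncaph, Pttg1 and Ube2c, and the 21 falls were all kept. Without Control replicate 36 or 47 the D7 count was 11, and the falls from D3 to D7 numbered 13 without D3 replicate 12 and 12 without D7 replicate 34.

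Markers of microglia and macrophages, and of choroid plexus, varied among the D7 arrays in step with the mitosis genes. Among 8 such markers there were 5 rises at D3, 7 at D7 and 5 after the first seizure, and Cd68, a lysosomal protein of phagocytes, rose by 3.50 ± 0.48, 3.40 ± 0.48 and 3.16 ± 0.48 at these times. Their mean was 1.53, 0.89, 2.62, 1.36 and 2.05 on D7 replicates 31 to 35, the same order of arrays as for the mitosis genes. The mean of 6 choroid plexus markers had this order too, at -1.39, -1.78, 2.76, -1.68 and 2.02, and at D3 it was -1.92, 2.11, -1.68, 1.84 and -1.36. The microglial mean was from 1.44 to 1.83 at D3 and from 0.97 to 1.56 in Chronic, and none of the 8 markers was called between D3 and Chronic, where 28 mitosis genes fell. The part of microglia and of choroid plexus in the levels of the mitosis genes was not tested.

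**Figure D5:**
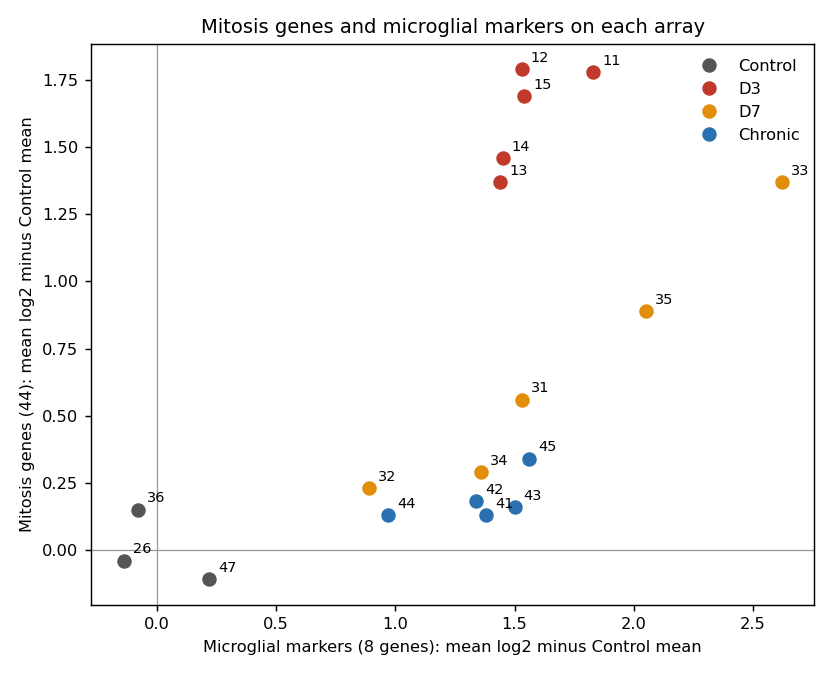
Mean log2 value above the Control mean of the 44 mitosis genes (y axis) against that of 8 microglial and macrophage markers (x axis), 1 point per array, labelled by replicate number. D3 and Chronic arrays cover similar microglial levels at different levels of mitosis genes, and D7 replicates 33 and 35 are the highest of D7 on both axes.

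Among 8 measured markers of neural progenitors and neuroblasts, Nes, which encodes nestin, rose by 1.45 ± 0.19 at D3 and fell by 1.15 on the log2 scale from D3 to D7 (adjusted p = 0.00285). Vim, which encodes vimentin and is made by reactive astrocytes as well, rose by 2.81 ± 0.27 at D3, and its rise was 1.5 ± 0.27 at D7 and 1.41 ± 0.27 in Chronic. Dcx, of migrating neuroblasts, gave -0.40 ± 0.14 at D3 and Sox2, of progenitors, 0.20 ± 0.14. By adjusted p alone (limma), 2 of the 8 markers were higher and 3 lower at D3, against 1459 and 2036 of all 12331 genes. Neurod1 was called lower at D7. The mean of the 8 markers was from 0.31 to 0.50 above Control at D3, from 0.02 to 0.33 at D7 and from 0.15 to 0.48 in Chronic. On D7 replicates 31 to 35 the marker mean was 0.22, 0.33, 0.02, 0.08 and 0.17, lowest on replicate 33, where the mitosis genes were highest. Gfap, the intermediate filament of astrocytes, rose by 2.15 ± 0.17 at D3 and was the only one of 7 astrocyte markers called there. With adjusted p alone (limma), 4 of these 7 were higher and 1 lower at D3. Their mean was from 0.38 to 0.47 above Control on the D3 arrays. By limma 0 of 5 oligodendrocyte precursor markers and 0 of 6 endothelial markers were called at D3. Of each of these marker sets 2 genes had an unadjusted limma p under 0.05, as did 5089 of all 12331 genes. The part of these cells was not tested.

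A wider list of 88 further genes of mitosis held 56 measured genes. At D3, 21 of 56 rose (5.09% of all genes) and 0 fell (0.973%), with a median of 0.72, and at D7 10 rose (3.8%). From D3 to D7 only 3 of the 56 fell (0.454% of all genes), and from D3 to Chronic 22 fell (0.997%). A fall of 2-fold or more by D7 was thus called in few genes of this wider list. Still, 48 of the 56 were lower at D7 than at D3, with a median of -0.5, against 6685 of all 12331 genes. An unadjusted limma p under 0.05 was reached by 31 of the 56 and by 1724 of all genes. The kinetochore and spindle genes Knstrn (at least 3.77-fold), Cenpa (at least 2.22-fold), Cenpt (2.68 ± 0.46) and Cenpw (2.42 ± 0.31) were among the 8 largest fitted D3 differences. The others were Pimreg (3.45 ± 0.54), the motors Kif18b (at least 5.54-fold) and Kif18a (at least 3.8-fold), and Aspm of the spindle poles (2.39 ± 0.29). In Chronic, Kif18a (at least 2.13-fold) and Depdc1b (at least 1.53-fold) were higher than in Control and Cenpn was lower (at least 1.48-fold). Where no fold is given, the value is a log2 difference ± SE.

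Subunits of the APC/C itself and regulators of cell cycle transcription were not called. Of 13 APC/C genes 0 were called at D3 by limma or by the methods' t-test. By adjusted p alone 2 were lower, 5 had an unadjusted limma p under 0.05, and the median was -0.10. Of 15 measured genes for cell cycle transcription factors 0 were called at any of the 3 times, by limma or the methods' t-test. At D3, 1 was higher and 2 lower by adjusted p alone, 6 had an unadjusted limma p under 0.05, and the median was -0.01. Of all 12331 genes, 1459 were higher and 2036 lower by adjusted p alone at D3, and 5089 had an unadjusted limma p under 0.05. The counts of both lists were thus not above the shares of all genes. Foxm1, a factor of G2 genes, gave 0.13 ± 0.14, Mybl2 (B-Myb) -0.08 ± 0.11, Lin54, the CHR-binding subunit of DREAM, 0.07 ± 0.14, and E2f1 -0.32 ± 0.12. Their probes were flagged good on all 18 arrays. These 4 genes were named after their values were seen.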

How the data were processed

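Whole-hippocampus RNA of 18 rats was measured on 1 CodeLink Rat Whole Genome Bioarray each. The authors quantified and background corrected the spots with CodeLink Expression Analysis and divided each array by 1 constant, and the deposited normalised intensity is on a linear scale. Spots flagged good (G) or low (L, near background) were kept and other flags (0.699% of spots) were left out. Values were floored at percentile 1 of the positive values of the array and log2 transformed.

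A 4-group model was fitted to 33800 probes with limma 3.58.1 (R 4.3.3; lmFit and eBayes with a trend) and p-values were adjusted by Benjamini-Hochberg over all probes; a call required an adjusted p under 0.05 and at least 2-fold. The script was tested on simulated data. Where every spot of the lower group was flagged low, the fold is a bound against the lowest good signal of each array. Such a bound is taken on the group means and holds no allowance for the spread among arrays. The methods' t-test was run on the same log2 values. Gene names came from the platform annotation or the accession in the file. No array column of unknown sample was used. The rats are separate animals; the number of arrays limits the precision.

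The mitosis genes, the other lists and the tests were chosen with earlier results of these data known. Values on every array are given for the 10 genes with the largest D3 difference, those called at D7 or in Chronic, and Mki67, Top2a, Cdk1, Ccnb1, Plk1 and Aurkb; other genes are named where called or, like Mad2l1, Cdca3 and Ect2, were chosen after their values were seen. Alternatives covered normalisation, floor, flags, filter, prior, probe choice, control arrays, fold limit, test and leaving out each array.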

Additional observations from a re-analysis of the deposited data

Results flagged for a closer look

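The difference from Control changed with time: tested directly between the pilocarpine groups, 21 of the 44 mitosis genes fell from D3 to D7 and 28 from D3 to Chronic.

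Outside the brightest probes, the second probe of Plk1 was called higher at D3 than in Control (2.07 on the log2 scale as fitted, at least 1.74-fold), where its brightest probe was not called. The second probe of Cenpf was called higher at D7 (1.47 on the log2 scale as fitted), with 1 good spot at D7. The Control spots of both second probes were all flagged low, so the fitted values are not exact, and for Cenpf at D7 no fold bound is given. Among 63 groups of 5 arrays tested for a single array far from the others, 0 had one. This does not mean that no single array weighed on the counts. Without D7 replicate 33, 9 genes were called higher at D7, against 17 with it.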

How the results depend on the processing

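The counts rest on 3 Control arrays, 1 per time, so that time and the saline rat cannot be told apart in the time-matched comparison, and several Control spots were near background. With the time-matched array, 1 gene was lower at D3, 1 was higher at D7 and 0 in Chronic. With no fold limit, 2 genes were lower at D3 and 1 at D7, against 2036 and 1908 of all 12331 genes. With log2 of value plus 0.25, 4 were higher at D7 and 0 in Chronic. The Chronic count was 0 with quantile normalisation and with a prior without trend. The methods' t-test gave 1 gene higher in Chronic and 7 lower from D7 to Chronic before adjustment, and after it 0 at D7, 0 in Chronic and 1 lower from D3 to D7. Leaving out each array in turn gave 25 to 28 higher and 0 to 1 lower at D3, 9 to 19 higher and 0 to 2 lower at D7, and 0 to 2 higher and 0 to 1 lower in Chronic. It gave 12 to 27 lower from D3 to D7, 27 to 29 from D3 to Chronic and 0 to 2 from D7 to Chronic, and 0 higher in these 3. The causes were not tested. The brightest Plk1 probe gave -0.04 at D3 with the time-matched array. Of 2000 values of single genes under alternatives, 1813 kept call and direction, 179 lost a call, 7 gained one and 1 reversed. Scaling at percentile 75 put the median of all probes at -0.063, 0.045 and 0.029 at D3, D7 and Chronic, against -0.119, -0.063 and -0.081. Background correction by normexp and a slide or scan block were not run, since the columns used hold no local background and no slide or scan date. No paired analysis was possible because no replicate number occurs in more than 1 group.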
